A study of Mus musculus with 12 samples.

Results

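The comparison described here is that of SwissOF1 (OF1) against C57Bl/6j (C57) mice that are both hemizygous for *Engrailed-1*, OF1-En1+/- against C57-En1+/-. Its members were chosen from the labels, as the 6 libraries of 12 in the series that carry the hemizygous genotype, 3 per strain. Each library is RNA-seq of the substantia nigra pars compacta, cut by laser from the midbrain of a male mouse of 1 week. In OF1-En1+/- and C57-En1+/- alike, 1 copy of *En1* is disrupted by an inserted *LacZ* gene, and hemizygous males had been mated with wild-type females. The C57-En1+/- line was derived from OF1-En1+/- mice by repeated backcrossing to C57. OF1 is an outbred stock, so that its mice differ from each other in their alleles, and C57 is an inbred strain. The other 6 libraries, 3 OF1 WT and 3 C57 WT mice, carry no disrupted allele and served as a separate set of animals in which the same strain difference was measured. The labels name a mouse per library, so p-values measure the spread between mice.

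The substantia nigra pars compacta holds the dopaminergic neurons that project to the striatum and are lost in Parkinson's disease. *En1* and its relative *En2* encode homeodomain transcription factors that these neurons need for their development and survival, and the EN1 protein is also known to regulate translation of complex I subunits. Loss of 1 *En1* copy is known to lead to progressive loss of these neurons in OF1 but much less so in C57 mice, which makes the strain difference among hemizygous mice the question of the comparison. A difference between strains can also come from the sequence of the genes themselves. The reads of both strains were assigned to transcripts of the C57BL/6J reference genome, and genes with near-identical copies elsewhere in the genome are therefore described apart from genes with a sequence of their own. The part of the reference in any single difference was not tested.

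The disrupted gene did not follow the labels in level. *En1* (ENSMUSG00000058665, chromosome 1 from 120530108 to 120535721) stood at 0, 691 and 0 normalized read counts in OF1-En1+/- and 0, 9.41 and 0 in C57-En1+/-, where each trio of values gives the mice SW21, SW22 and SWB, then C5713, C572 and C575. In WT mice it ranged from 1.11 to 15.2 in OF1 and from 0.871 to 1071 in C57. *En1* was thus detectable in mouse SW22 and close to absent in the other hemizygous mice. The tissue label was also not met evenly, since *Th*, which encodes the enzyme that makes the dopamine precursor, stood at 8.80, 85968 and 81.1 normalized read counts in OF1-En1+/- and 33.6, 156 and 293 in C57-En1+/-. The deposited libraries held 13570749 to 28294254 estimated reads in OF1-En1+/- and 20030280 to 37754338 in C57-En1+/-, so that 1 read was worth 0.858 to 2.33 normalized read counts. Mouse C572 is labelled male but had 0 reads of the Y-linked *Ddx3y* and *Eif2s3y*. Because SW22 and C572 stood apart, results are also given without them. In bulk tissue, fewer cells of a type and less RNA per cell cannot be told apart.

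Of 18017 genes tested, 167 (0.927%) differed between OF1-En1+/- and C57-En1+/- at an adjusted p under 0.05, 120 higher (0.666%) and 47 lower (0.261%) in OF1-En1+/-. The test was edgeR's quasi-likelihood test, fitted to all 12 libraries and adjusted over all 18017 genes by Benjamini-Hochberg. DESeq2 called 444 genes and limma voom 137. An unadjusted p under 0.05 was reached by 1442 of the 18017 genes in edgeR. Most of the 167 genes were pseudogenes or shared sequence with another gene. Of 502 pseudogenes tested, 74 (14.7%) were called, 69 of them higher in OF1-En1+/-. Of 3050 genes that share at least 20% of their distinct 31-base words with transcripts of another gene, 48 (1.57%) were called, 27 higher and 21 lower. Among 12986 protein-coding genes with less sharing, 43 (0.331%) were called, 23 higher and 20 lower, and among 1177 lncRNA genes 2 (0.17%). Of the 43, 6 still had another gene that shares at least 20% of its own words with them. In all 167 the 3 mice of 1 strain lay above the 3 of the other, as they did in 13.2% of all genes tested. The 167 were called on these same mice, so their separation is no further evidence. Without SW22 and C572 the total was 84, 67 of them higher, and that of protein-coding genes 19. Leaving out SW22 alone gave 108 genes, 27 of them protein-coding, and leaving out SW21 gave 26 protein-coding genes.

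The same strain difference was measured in WT mice, none of which enter the group means of the hemizygous comparison. Both comparisons come from the same fit to all 12 libraries and share its estimates of spread. Their calls are therefore not independent. There, 185 genes (1.03%) were called, and 135 genes were called in both genotypes, all 135 in the same direction. They were 80.8% of the genes called in hemizygous mice and 73.0% of those called in WT mice. Of the 167 genes, 165 had the same sign in WT mice. A direct test of whether the strain difference changed with genotype called 0 genes in edgeR and 0 in limma voom, where the lowest adjusted p in edgeR was 0.614 and 1274 genes had an unadjusted p under 0.05, whereas DESeq2 called 42. No gene can therefore be named by edgeR as differing between the strains in hemizygous mice only.

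**Figure D1:**
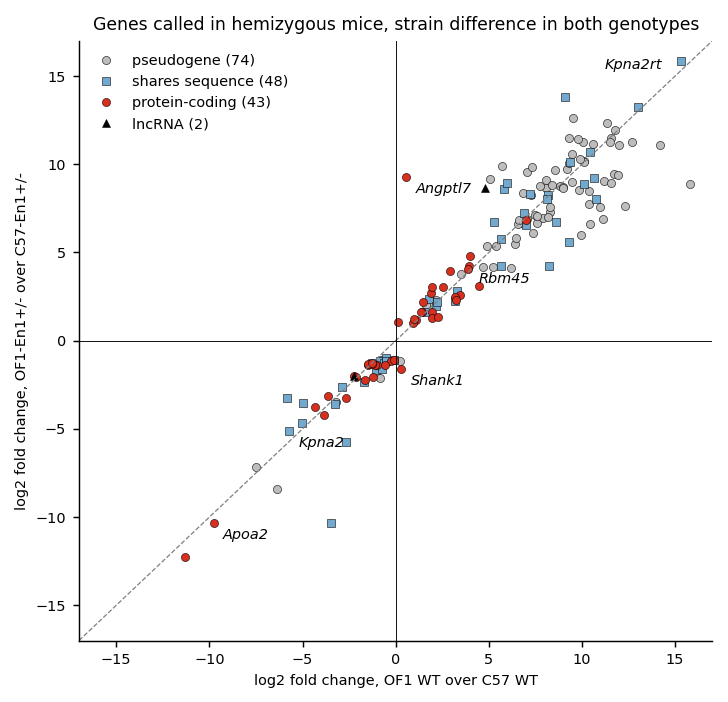
Log2 fold change of OF1 over C57 in WT mice (x axis) and in hemizygous mice (y axis) for the 167 genes called in hemizygous mice, 1 point a gene, by class, with the line of equal values dashed. Of the 167 points, 165 lie on the same side of 0 on both axes, *Shank1* being an exception, and for genes without reads in a group the plotted value depends on the prior count and measures no size.

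The protein-coding genes that were higher in OF1-En1+/- were led by *Rbm45*, which encodes an RNA-binding protein (ENSMUSG00000042369, chromosome 2 from 76200272 to 76219904). It stood at 982, 1446 and 898 normalized read counts in OF1-En1+/- and 51.1, 50.2 and 78.0 in C57-En1+/-, with means of 1109 ± 295 against 59.8 ± 15.8 (SD, n = 3), 18.4-fold higher (log2 fold change 4.20, standard error 0.351, adjusted p = 3.69e-05). The strains did not come near each other, and WT mice gave a similar difference (log2 fold change 3.95, adjusted p = 4.28e-05). *Wdfy1*, the gene of an adaptor protein of endosomal Toll-like receptor signalling (ENSMUSG00000073643, chromosome 1 from 79679017 to 79753860), stood at 4442, 5134 and 3579 normalized read counts in OF1-En1+/- and 596, 314 and 681 in C57-En1+/- (log2 fold change 3.05, standard error 0.286, adjusted p = 1.07e-04). *Wdfy1* is on a list of genes with known variants among inbred strains, and it was called in WT mice too (log2 fold change 2.53, adjusted p = 3.91e-04). *Supt16*, a subunit of the FACT histone chaperone that lets RNA polymerase pass through chromatin, was measured at 3065, 3214 and 2945 normalized read counts in OF1-En1+/- and 417, 545 and 576 in C57-En1+/- (log2 fold change 2.58, standard error 0.285, adjusted p = 4.48e-04). Its OF1-En1+/- mice were close together, at 3075 ± 134 (SD, n = 3), and in WT mice it was again higher in OF1 (log2 fold change 3.43, adjusted p = 4.11e-05).

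Genes of membrane lipid and membrane traffic were among those higher in OF1-En1+/-. *Inpp4a*, a phosphatase that removes a phosphate from inositol lipids, stood at 4255, 4255 and 2192 normalized read counts in OF1-En1+/- and 591, 726 and 633 in C57-En1+/- (log2 fold change 2.46, standard error 0.352, adjusted p = 0.00396). *Tmem87a*, which encodes a Golgi membrane protein, stood at 1665, 1832 and 1526 normalized read counts in OF1-En1+/- and 11.2, 80.5 and 84.9 in C57-En1+/- (log2 fold change 4.80, standard error 0.724, adjusted p = 0.00587). The C57 mice held hardly any of its reads, and C5713 the fewest. *Arl6ip5*, a protein of the endoplasmic reticulum that binds a glutamate transporter, had means of 6083 ± 1342 against 1947 ± 587 (SD, n = 3) (log2 fold change 1.64, standard error 0.248, adjusted p = 0.00574). *Pnpla3*, a lipase of lipid droplets, had means of 626 ± 138 against 40.8 ± 20.2 (SD, n = 3) (log2 fold change 3.95, standard error 0.498, adjusted p = 0.00148). Summed over the 3 genes chained to *Pnpla3* by shared sequence, itself included, the log2 fold change was 0.36 (adjusted p = 0.756 in edgeR). All 4 genes were called in the same direction in WT mice, with adjusted p between 5.13e-04 and 0.0149.

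Other genes higher in OF1-En1+/- act in signalling, the cytoskeleton and metabolism. *Gnb1*, the β1 subunit of heterotrimeric G proteins, stood at 7588, 7811 and 8812 normalized read counts in OF1-En1+/- and 4424, 2439 and 2895 in C57-En1+/- (log2 fold change 1.31, standard error 0.236, adjusted p = 0.0196), and its call was lost without SW21, SW22, SWB, C572 or C575 (adjusted p up to 0.0967). It had the highest mean count of the protein-coding genes named here as higher in OF1-En1+/-, and its groups did not overlap. *Cap1*, which speeds the turnover of actin filaments, had means of 2689 ± 899 against 872 ± 148 (SD, n = 3) (log2 fold change 1.62, standard error 0.241, adjusted p = 0.00512). *Adi1*, an enzyme of the methionine salvage pathway, differed by a factor of 2.02, with means of 1781 ± 52.1 against 879.6 ± 41.0 (SD, n = 3) (log2 fold change 1.02, standard error 0.165, adjusted p = 0.00913). *Hebp1*, a haem-binding protein, had means of 280.2 ± 119 against 31.8 ± 13.9 (SD, n = 3) (log2 fold change 3.12, standard error 0.507, adjusted p = 0.00913). *Hemk1*, which methylates a mitochondrial translation release factor, had means of 946 ± 141 against 301 ± 86.1 (SD, n = 3) (log2 fold change 1.65, standard error 0.262, adjusted p = 0.00802). *Fam32a* had means of 5992 ± 1135 against 2713 ± 162 (SD, n = 3) (log2 fold change 1.14, standard error 0.170, adjusted p = 0.00517). Each of these 6 genes was also called higher in OF1 WT than in C57 WT mice. *Sfi1*, a centrosomal protein, had means of 1270.0 ± 538 against 283 ± 39.4 (SD, n = 3) (log2 fold change 2.17, standard error 0.359, adjusted p = 0.0107), and its call was lost without SW21, SW22, C5713, C572 or C575 (adjusted p up to 0.0693). *Fv1*, a retrovirus restriction factor whose alleles are known to differ between laboratory strains, had means of 243 ± 38.5 against 36.8 ± 11.1 (SD, n = 3) (log2 fold change 2.71, standard error 0.522, adjusted p = 0.0304), and its call was lost without SW21, SW22, SWB, C5713, C572 or C575 (adjusted p up to 0.134).

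The protein-coding genes that were lower in OF1-En1+/- included a pair without a read in that group. *Gm73394* (ENSMUSG00000121808, chromosome 11 from 22922089 to 22927503), a gene model without an assigned function, stood at 0, 0 and 0 normalized read counts in OF1-En1+/- and 505, 578 and 333 in C57-En1+/-, at least 297-fold lower in OF1-En1+/- against a floor of 3 reads over the group (adjusted p = 2.12e-04). *Apoa2*, an apolipoprotein of high-density lipoprotein (ENSMUSG00000005681, chromosome 1 from 171049125 to 171053948), stood at 0, 0 and 0 normalized read counts in OF1-En1+/- and 99.1, 188 and 83.2 in C57-En1+/-, at least 77.6-fold lower (adjusted p = 0.0063). OF1 WT mice had a mean of 0 and 0 normalized read counts of these 2 genes. *Myo7a*, an unconventional myosin known from the hair cells of the inner ear (ENSMUSG00000030761, chromosome 7 from 97699069 to 97768734), stood at 29.9, 37.2 and 52.9 normalized read counts in OF1-En1+/- and 534, 366 and 735 in C57-En1+/-, 13.5-fold lower in OF1-En1+/- (log2 fold change −3.75, standard error 0.383, adjusted p = 2.13e-04). Every C57-En1+/- mouse lay far above every OF1-En1+/- mouse, and WT mice differed likewise (log2 fold change −4.35, adjusted p = 6.25e-05).

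*Abhd14a*, a gene of the alpha/beta hydrolase family (ENSMUSG00000042210, chromosome 9 from 106317247 to 106326106), stood at 102, 74.4 and 261 normalized read counts in OF1-En1+/- and 1629.7, 1280.3 and 1376 in C57-En1+/- (log2 fold change −3.27, standard error 0.427, adjusted p = 0.00177). *Rad23b*, which takes part in nucleotide excision repair and carries ubiquitinated proteins to the proteasome, stood at 352, 353 and 435 normalized read counts in OF1-En1+/- and 1133, 873 and 979 in C57-En1+/- (log2 fold change −1.39, standard error 0.204, adjusted p = 0.0049). Its difference was 2.62-fold, with little spread in either group. *Rcan2*, an inhibitor of the phosphatase calcineurin, had means of 1318 ± 555 against 5441 ± 1324 (SD, n = 3) (log2 fold change −2.04, standard error 0.338, adjusted p = 0.0105), and its call was lost without SW21 or SW22 (adjusted p up to 0.0688). *Pop4*, a subunit of ribonuclease P, had means of 921 ± 59.1 against 2420.2 ± 469 (SD, n = 3) (log2 fold change −1.39, standard error 0.246, adjusted p = 0.0169), and its call was lost without SW21, SW22, SWB or C572 (adjusted p up to 0.0962). *Chd9*, a chromatin remodeller, had means of 665 ± 34.8 against 1679.9 ± 401 (SD, n = 3) (log2 fold change −1.34, standard error 0.241, adjusted p = 0.0198), and its call was lost without SW21, SW22, SWB or C572 (adjusted p up to 0.0897). *Fam219b* and the gene model *Gm5148* had log2 fold changes of −1.98 and −4.23 (adjusted p = 0.00615 and 0.00154). Summed over the 16 genes chained to *Gm5148* by shared sequence, itself included, the log2 fold change was −0.55 (adjusted p = 0.757 in edgeR). These 7 genes were called lower in OF1 in WT mice as well.

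**Figure D2:**
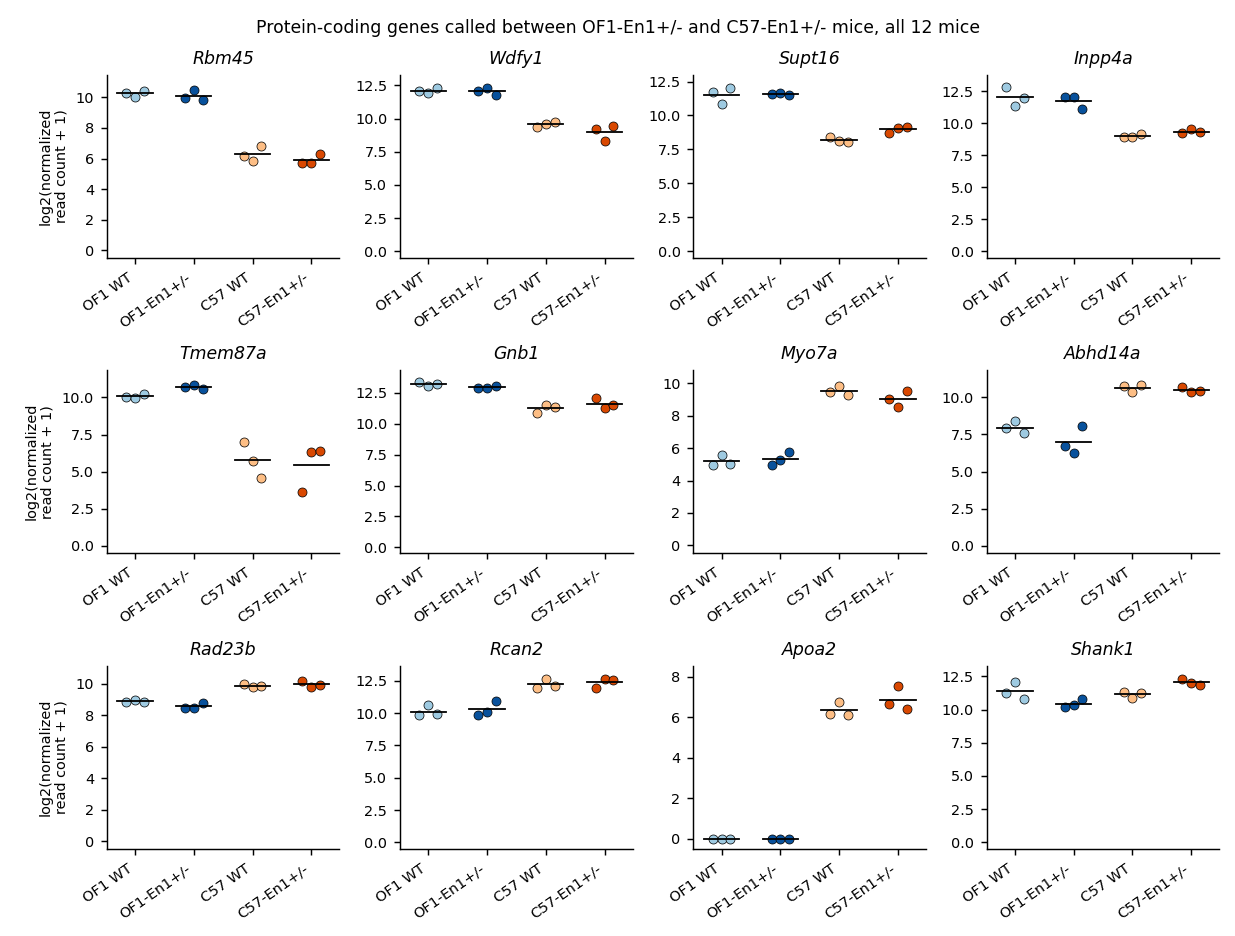
Normalized read counts on a log2(count + 1) scale (y axis) of 12 called protein-coding genes in the WT and hemizygous mice of each strain (x axis), 1 point a mouse, with the group mean as a line. *Rbm45*, *Wdfy1*, *Supt16*, *Inpp4a*, *Tmem87a* and *Gnb1* lie higher in OF1 mice of either genotype, *Myo7a*, *Abhd14a*, *Rad23b*, *Rcan2* and *Apoa2* lower, whereas the OF1 WT and C57 WT points of *Shank1* overlap.

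Another 10 protein-coding genes that were called fell outside the rule for naming and were picked out after their values were seen. Higher in OF1-En1+/- were *Tbrg4* and *Cant1*, a regulator of mitochondrial RNA and a nucleotidase, with log2 fold changes of 1.37 for *Tbrg4* (adjusted p = 0.038) and 1.23 for *Cant1* (adjusted p = 0.0313). *Prune2*, *Dennd10*, the meiotic gene *Hsf2bp* and the gene model *Gm20379* were higher as well, with 2.29 for *Prune2* (adjusted p = 0.0382), 1.07 for *Dennd10* (adjusted p = 0.0383), 3.02 for *Hsf2bp* (adjusted p = 0.0411) and 4.05 for *Gm20379* (adjusted p = 0.0109). *Cbr1b*, of the carbonyl reductase family, stood at 56.3, 74.4 and 42.8 normalized read counts in OF1-En1+/- and 1.60, 0 and 0 in C57-En1+/- (adjusted p = 0.0268), with 1 read in all in C57-En1+/-. Lower in OF1-En1+/- were *Sc5d*, an enzyme of cholesterol synthesis, *Fastkd1*, a regulator of mitochondrial RNA, and the oocyte gene *Ooep*, with −1.33 for *Sc5d* (adjusted p = 0.0356), −1.28 for *Fastkd1* (adjusted p = 0.0369) and −3.15 for *Ooep* (adjusted p = 0.0415). Each of these 10 genes lost its call without at least 1 library. *Gm20379* lost it without C5713 or C575 (up to 0.0656), *Cant1* without SW21, SW22, C5713 or C572 (up to 0.141), and *Tbrg4* without SW22, SWB, C5713, C572 or C575 (up to 0.177). *Prune2* and *Hsf2bp* lost it without SW21, SW22, SWB, C5713 or C575 (up to 0.181 and 0.16), *Cbr1b* without SW21, SW22, SWB, C572 or C575 (up to 0.118), and *Ooep* without SW21, SW22, C5713, C572 or C575 (up to 0.185). *Dennd10*, *Sc5d* and *Fastkd1* lost it without any 1 of the 6 libraries (up to 0.169, 0.152 and 0.172).

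Of the 43 protein-coding genes, 31 were also called in WT mice and 12 were not, although 42 of 43 had the same sign there. *Shank1*, which encodes a scaffold protein of excitatory synapses (ENSMUSG00000038738, chromosome 7 from 43959615 to 44009996), was the exception in sign. It stood at 1183, 1274 and 1779 normalized read counts in OF1-En1+/- and 5079, 4188 and 3756 in C57-En1+/- (log2 fold change −1.62, standard error 0.306, adjusted p = 0.027), and at means of 2831 ± 1299.8 (SD, n = 3) for OF1 WT and 2284 ± 394 (SD, n = 3) for C57 WT mice (log2 fold change 0.31, adjusted p = 0.839). The interaction of strain and genotype had an unadjusted p of 6.81e-04 and an adjusted p of 0.691 in edgeR. Its call was lost without SW21, SW22, SWB, C5713, C572 or C575 (adjusted p up to 0.14). *Angptl7*, a secreted angiopoietin-like protein that was picked out after its values were seen (ENSMUSG00000028989, chromosome 4 from 148579639 to 148584923), stood at 89.8, 41.9 and 43.9 normalized read counts in OF1-En1+/- and 0, 0 and 0 in C57-En1+/-. That is at least 53.6-fold higher in OF1-En1+/- (adjusted p = 0.00577), while WT mice ranged from 21.2 to 31.6 in OF1 and from 10.5 to 23.2 in C57. Its interaction had an unadjusted p of 1.51e-04 and an adjusted p of 0.691. Of the other genes called only in hemizygous mice, *Tmem254* had means of 3190.0 ± 504 against 13126 ± 5049 (SD, n = 3) (log2 fold change −2.04, standard error 0.330, adjusted p = 0.00897), and its call was lost without SW22 (adjusted p 0.0634). *Sdc4*, a heparan sulphate proteoglycan of the cell surface, had means of 165 ± 34.1 against 787 ± 269 (SD, n = 3) (log2 fold change −2.25, standard error 0.432, adjusted p = 0.0301), and its call was lost without SW21, SW22, SWB, C5713 or C572 (adjusted p up to 0.146). *Sfi1* and *Fv1*, described above, had WT differences of 1.46 and 1.91 on the log2 scale, of the same sign as in hemizygous mice.

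Both lncRNA genes that were called are gene models without an assigned function. *Gm13112* (ENSMUSG00000087437, chromosome 4 from 154948943 to 154957002) stood at 144, 97.7 and 120.5 normalized read counts in OF1-En1+/- and 659.9, 526 and 256 in C57-En1+/- (log2 fold change −1.99, standard error 0.386, adjusted p = 0.0317), and its call was lost without SW21, SW22, SWB, C5713 or C572 (adjusted p up to 0.149). It was called in the same direction in WT mice (adjusted p = 0.0138). *Gm16251*, below the count minimum of the rule for naming, stood at 58.1, 25.6 and 32.6 normalized read counts in OF1-En1+/- and 0, 0 and 0 in C57-En1+/-, at least 35.5-fold higher in OF1-En1+/- (adjusted p = 0.0468), and its call was lost without SW21, SW22, SWB, C5713, C572 or C575 (adjusted p up to 0.146). limma voom called 0 and DESeq2 22 lncRNA genes, and 82 had an unadjusted p under 0.05 in edgeR.

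The mitochondrial genome encodes 7 subunits of complex I and 6 of complexes III to V, the machinery of oxidative phosphorylation. All 13 genes had negative log2 fold changes between OF1-En1+/- and C57-En1+/-, with a median of −0.90 and a range from −1.38 to −0.55, where the median over all tested genes was −0.018. Only 6 of the 13 have less than 20% shared sequence, and 3 of these 6 were called. The others share more with other genes, such as *mt-Nd4*, with 62.8% of its 31-base words in *Gm28439*. Summed over the 2 genes chained to *mt-Nd4* by shared sequence, itself included, the log2 fold change was −0.91 (adjusted p = 0.279 in edgeR). Beyond such sums, the part of copies in the differences was not tested. Of the 13, 4 passed the test, beside 0.261% of all genes tested that were called lower. Between strains 11 did not overlap, as did 13.2% of all genes tested. DESeq2 called 7, and 444 of all 18017 genes. *mt-Nd1*, a core subunit of complex I (ENSMUSG00000064341, chromosome M from 2751 to 3707), shared none of its 31-base words with another gene and stood at 60902, 43943 and 53859.6 normalized read counts in OF1-En1+/- and 124181, 126694 and 102013 in C57-En1+/- (log2 fold change −1.15, standard error 0.211, adjusted p = 0.0216). *mt-Atp8*, a small subunit of ATP synthase (ENSMUSG00000064356, chromosome M from 7766 to 7969), stood at 10767, 7089.8 and 10999 normalized read counts in OF1-En1+/- and 24702, 28212 and 22089 in C57-En1+/- (log2 fold change −1.38, standard error 0.239, adjusted p = 0.0152). *mt-Nd6*, the complex I subunit encoded on the opposite strand to the others, stood at 7920.4, 5995 and 7853 normalized read counts in OF1-En1+/- and 19417, 16001 and 11362 in C57-En1+/- (log2 fold change −1.10, standard error 0.231, adjusted p = 0.0482). *mt-Nd4l*, which shares nearly all of its sequence with a nuclear copy, stood at 1993, 1779 and 1546 normalized read counts in OF1-En1+/- and 3749.8, 5158 and 3049 in C57-En1+/- (log2 fold change −1.17, standard error 0.243, adjusted p = 0.047). In all 4 genes the highest OF1-En1+/- mouse lay below the lowest C57-En1+/- mouse. The call of *mt-Nd1* was lost without SW22, SWB, C5713 or C572 (adjusted p up to 0.104), that of *mt-Atp8* without SW21 or SW22 (up to 0.0674), and those of *mt-Nd6* and *mt-Nd4l* without SW21, SW22, SWB, C5713 or C572 (up to 0.201 and 0.179).

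**Figure D3:**
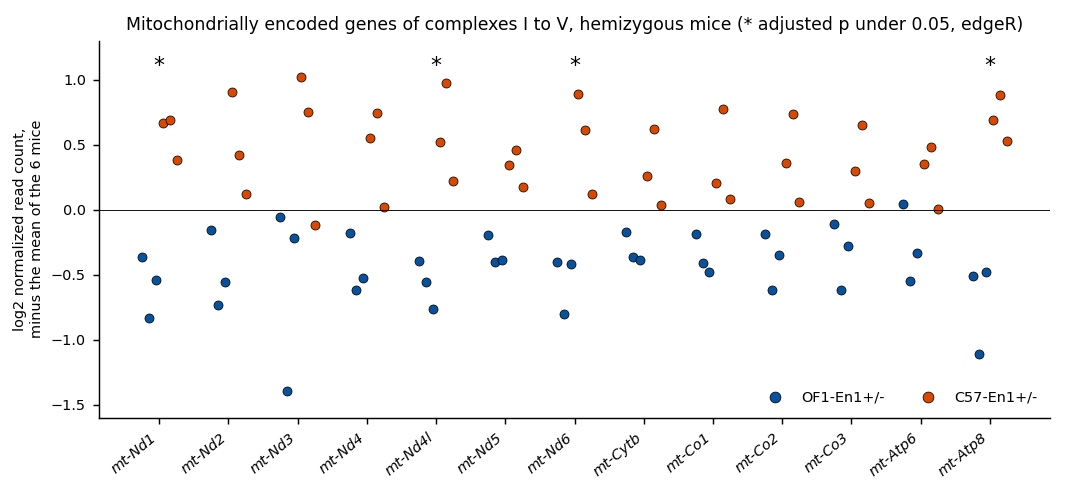
Log2 normalized read count of the 13 mitochondrially encoded complex genes (x axis) minus the mean of the 6 hemizygous mice (y axis), 1 point a mouse, OF1-En1+/- blue and C57-En1+/- orange. Stars mark the 4 genes past the test, and in 11 of 13 genes every blue point lies below every orange one.

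*mt-Nd2* and *mt-Nd4*, which encode core subunits of complex I, did not pass the test in edgeR, with log2 fold changes of −0.98 for *mt-Nd2* (adjusted p = 0.156) and −0.90 for *mt-Nd4* (adjusted p = 0.167). The most abundant transcript per length was that of *mt-Co3*, a subunit of cytochrome c oxidase, at 17078 TPM in OF1-En1+/- and 23449.5 TPM in C57-En1+/-. The summed reads of the mitochondrial chromosome made up 3.53%, 2.58% and 2.87% of the reads in OF1-En1+/- and 4.94%, 5.50% and 3.85% in C57-En1+/-. In WT mice the median over the 13 genes was 0.036, and 6 of 13 were negative. Against WT mice of their own strain, the median over these genes was 0.83 for C57-En1+/- and −0.038 for OF1-En1+/-, where the smallest adjusted p of the 13 was 0.55 in C57 and 0.669 in OF1 mice. For 8 of the 13 genes the interaction had an unadjusted p under 0.05, and the smallest adjusted p was 0.691. Both mitochondrial rRNAs had negative log2 fold changes without passing the test, −0.62 for *mt-Rnr2* (adjusted p = 0.667) and −0.75 for *mt-Rnr1* (adjusted p = 0.675). The study named mitochondrially encoded genes from these samples, so the direction of the list is not independent evidence.

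Nuclear genes of the same complexes also had mostly negative log2 fold changes, 34 of 37 in complex I and 37 of 41 in complexes II to V. Of the 37 nuclear complex I genes edgeR called 0, with a median log2 fold change of −0.31, 4 at an unadjusted p under 0.05 and 0 in DESeq2. Of the 41 nuclear genes of complexes II to V edgeR also called 0, with a median of −0.31, 2 at an unadjusted p under 0.05 and 0 in DESeq2. Over all 18017 genes tested, 1442 had an unadjusted p under 0.05 in edgeR, and DESeq2 called 444. In WT mice the medians of these nuclear lists were 0.49 and 0.56. Without SW22 and C572 the medians in hemizygous mice were 0.022 and 0.00697, so the negative sign of the lists was not kept, and the median of the 13 mitochondrially encoded genes was −0.67. The difference between the lists was not tested. The members with the highest counts had log2 fold changes of −0.084 for *Ndufb8* (adjusted p = 0.982), −0.20 for *Ndufv2* (adjusted p = 0.901), 0.013 for *Atp5f1b* (adjusted p = 0.999) and −0.029 for *Atp5f1a* (adjusted p = 0.994).

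Cytosolic ribosomal proteins build the ribosome that translates nuclear mRNAs. With TMM factors all 78 genes tested had negative log2 fold changes, with a median of −0.45 against −0.018 over all genes, and −0.18 without SW22 and C572. In WT mice the median was 0.43. Lower calls were made for 5 of the 78, beside 0.261% of all genes tested, and DESeq2 called 8. *Rps2* stood at 1569, 177 and 628 normalized read counts in OF1-En1+/- and 9553, 8432 and 9533 in C57-En1+/- (log2 fold change −3.53, standard error 0.565, adjusted p = 0.00897), and its call was lost without SWB (adjusted p 0.0661). *Rps7*, *Rps18* and *Rpl29* had log2 fold changes of −1.66, −1.29 and −1.24 (adjusted p = 0.0127, 0.0248 and 0.0356). *Rpl34*, named after its values were seen as the fifth call, had a log2 fold change of −1.39 (adjusted p = 0.0433). Leaving out 1 mouse raised the adjusted p to at most 0.177 among these 4 genes. Each lost its call without SW21, SW22 or C572, *Rps18* and *Rpl29* also without SWB or C5713, and *Rpl34* also without C5713 or C575. All 5 genes had a copy that was called higher in OF1-En1+/-, described next.

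A processed pseudogene or retrogene is a copy of a spliced mRNA that was inserted elsewhere in the genome, and short reads can be told apart between gene and copy only where the sequences differ. *Kpna2*, which encodes the nuclear import receptor importin α1, and its copy *Kpna2rt* are an example that was chosen after the values of *Kpna2* were seen. Over 1587 coding bases they differ at 2 positions (99.9% identical). Both lie in the windows of 80 coding bases below, from the GRCm39 genome and read 5′ to 3′ on the coding strand, with the differing bases in capitals:
Kpna2, chr11:106882079-106882158 (−): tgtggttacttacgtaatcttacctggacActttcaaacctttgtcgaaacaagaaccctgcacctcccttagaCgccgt
Kpna2rt, chr17:90216999-90217078 (−): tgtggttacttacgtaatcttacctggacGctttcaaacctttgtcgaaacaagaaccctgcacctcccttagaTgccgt
*Kpna2rt* stood at 4660.0, 4618 and 7325 normalized read counts in OF1-En1+/- and 0, 0 and 0 in C57-En1+/-, at least 5071-fold higher in OF1-En1+/- (adjusted p = 3.67e-06). *Kpna2* itself stood at 84.5, 142 and 171 normalized read counts in OF1-En1+/- and 3683, 4668 and 5545 in C57-En1+/- (log2 fold change −5.12, standard error 0.410, adjusted p = 2.56e-05). The sums of both genes were 5667 ± 1584 in OF1-En1+/- and 4632 ± 932 in C57-En1+/- (SD, n = 3), and overlapped between the groups. Both differences were present in WT mice with the same sign (adjusted p = 2.12e-06 and 1.11e-05).

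The proteasome subunit gene *Psmb5* and its copy *Gm3375*, also picked after their values were seen, differ at 8 of 792 coding bases (99.0% identical). A window with 2 of these is shown for comparison with the first pair:
Psmb5, chr14:54854166-54854245 (−): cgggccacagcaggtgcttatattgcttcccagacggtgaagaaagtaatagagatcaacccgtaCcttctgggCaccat
Gm3375, chr7:3231073-3231152 (+): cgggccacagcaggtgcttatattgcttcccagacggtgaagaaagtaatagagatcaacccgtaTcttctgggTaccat
*Psmb5* stood at 7109, 5106 and 5736 normalized read counts in OF1-En1+/- and 13761, 13134 and 9249 in C57-En1+/- (log2 fold change −1.01, standard error 0.202, adjusted p = 0.0374), and its call was lost without SW21, SW22, SWB, C5713 or C572 (adjusted p up to 0.164). *Gm3375* stood at 5852, 4497 and 4889 normalized read counts in OF1-En1+/- and 0, 5.23 and 0.858 in C57-En1+/- (adjusted p = 1.74e-06). The copy was nearly without reads in C57-En1+/-, and the sums were 11063 ± 1721 in OF1-En1+/- and 12050.2 ± 2445 in C57-En1+/- (SD, n = 3). The mitochondrial gene *mt-Nd4l* and its nuclear copy *Gm10222* are identical over all 294 coding bases, so that no read within them can be assigned to 1 of the 2:
mt-Nd4l, chrM:9877-9956 (+): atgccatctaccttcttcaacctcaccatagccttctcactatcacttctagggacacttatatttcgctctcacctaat
Gm10222, chr1:24651702-24651781 (−): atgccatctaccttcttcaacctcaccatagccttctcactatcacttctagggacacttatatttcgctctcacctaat

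**Figure D4:**
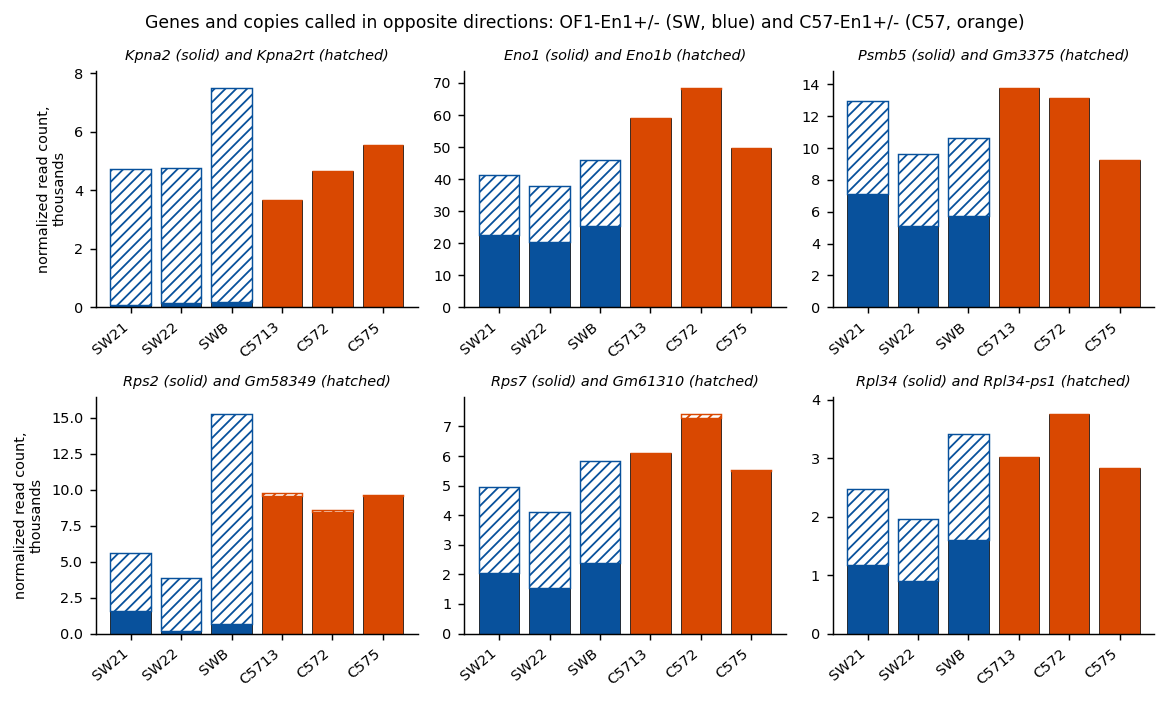
Normalized read counts divided by 1000 (y axis) of 6 genes (solid) stacked with a copy (hatched) in each hemizygous mouse (x axis), OF1-En1+/- in blue and C57-En1+/- in orange. The hatched part is visible in every blue bar and close to 0 in the orange bars, as for *Kpna2rt*, with 0 reads in the 3 C57-En1+/- mice.

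Among the called genes there were 14 pairs of a lower gene and a higher copy, which included *Eno1*, the enolase of glycolysis, and the ribosomal protein genes above. *Eno1*, named after its values were seen, stood at 22672, 20253 and 25346 normalized read counts in OF1-En1+/- and 58948, 68150.0 and 49685 in C57-En1+/- (log2 fold change −1.37, standard error 0.213, adjusted p = 0.0067), and its copy *Eno1b* at 18666, 17707 and 20767 normalized read counts in OF1-En1+/- and 224, 237 and 154 in C57-En1+/- (log2 fold change 6.54, standard error 0.305, adjusted p = 2.84e-07). *Rps2* and its copy *Gm58349* summed to 8212 ± 6131 in OF1-En1+/- and 9311 ± 661 in C57-En1+/- (SD, n = 3). *Rps7* and *Gm61310* summed to 4962 ± 859 in OF1-En1+/- and 6352 ± 957 in C57-En1+/- (SD, n = 3). *Rpl29* and *Gm8210* summed to 5932 ± 1003 in OF1-En1+/- and 7883 ± 1338 in C57-En1+/- (SD, n = 3). *Rpl34* and *Rpl34-ps1* summed to 2614 ± 743 in OF1-En1+/- and 3199 ± 484 in C57-En1+/- (SD, n = 3). The sums of these 4 pairs lay closer together between the strains than the counts of the ribosomal protein gene alone. Pairs were selected for a lower gene and a higher copy, so a shift in this direction was built in. *Eno1* and *Eno1b* summed to 41804 ± 4096 in OF1-En1+/- and 59133 ± 9274 in C57-En1+/- (SD, n = 3). These sums did not overlap, but they leave out other called copies of *Eno1*. Of these, *Gm4735* stood at 11704, 11533 and 14599 in OF1-En1+/- and 0, 12.5 and 1.72 in C57-En1+/-. Summed over all 6 genes chained to *Eno1b* by shared sequence, the log2 fold change was −0.11 (adjusted p = 0.959 in edgeR). *Rps18-ps6*, a copy of *Rps18*, stood at 1368, 999.9 and 1665 normalized read counts in OF1-En1+/- and 19.2, 9.41 and 11.1 in C57-En1+/- (log2 fold change 6.70, standard error 0.456, adjusted p = 6.36e-06). *Rps18* and *Rps18-ps6* summed to 4095 ± 766 in OF1-En1+/- and 6744 ± 1469 in C57-En1+/- (SD, n = 3), again without overlap. This sum too leaves out called copies, *Rps18-ps3* and *Rps18-ps5*. The latter stood at 870, 588 and 1298 in OF1-En1+/- and 3.20, 0 and 4.29 in C57-En1+/-.

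The pseudogenes with the smallest p were copies of highly expressed genes. *Gm15459*, a copy of the chaperone gene *Hspa8*, stood at 50232, 73083 and 64358 normalized read counts in OF1-En1+/- and 20.8, 33.4 and 20.6 in C57-En1+/- (log2 fold change 11.28, standard error 0.502, adjusted p = 2.16e-07). *Gm13340*, a nuclear copy of mitochondrial sequence that includes part of *mt-Co1*, stood at 13343, 10366 and 11632 normalized read counts in OF1-En1+/- and 78.3, 84.7 and 64.3 in C57-En1+/- (log2 fold change 7.28, standard error 0.233, adjusted p = 1.33e-08). It was higher in OF1-En1+/- while the 13 mitochondrially encoded genes had negative log2 fold changes. Summed over the 3 genes chained to *Gm13340* by shared sequence, itself included, the log2 fold change was −0.79 (adjusted p = 0.279 in edgeR). *Atp6v0c-ps2*, a copy of a gene of the vacuolar proton pump, stood at 6632, 7576 and 7784 in OF1-En1+/- and 3.20, 2.09 and 4.29 in C57-En1+/-, and *Ldhb-ps*, a copy of a lactate dehydrogenase gene, at 5084, 3411 and 3757 in OF1-En1+/- and 7.99, 1.05 and 6.00 in C57-En1+/- normalized read counts. *Rpl3-ps1* stood at 7193, 5897 and 3967 in OF1-En1+/- and 0, 3.14 and 3.43 in C57-En1+/-, and *Vcp-rs*, a copy of a gene for an ATPase of protein quality control, at 9749.6, 16212 and 11536 in OF1-En1+/- and 6.39, 2.09 and 0 in C57-En1+/-. Among genes that share sequence, *Hmgn2-ps* stood at 1944, 1883 and 2225 in OF1-En1+/- and 12.8, 19.9 and 7.72 in C57-En1+/-. In each of these 7 copies every OF1-En1+/- mouse held far more counts than any C57-En1+/- mouse. *Gm26782* went the other way, at 248, 165 and 155 normalized read counts in OF1-En1+/- and 3029, 2189 and 1735 in C57-En1+/- (log2 fold change −3.61, standard error 0.287, adjusted p = 2.48e-05).

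Over all classes, 26 of the called genes had 0 reads in the 3 C57-En1+/- mice, and 4 had 0 reads in the 3 OF1-En1+/- mice. The share of reads assigned to pseudogenes was 1.16% to 1.26% for OF1-En1+/- mice and 0.63% to 0.89% for C57-En1+/- mice, without overlap. When genes were chained into groups by shared sequence and their counts summed before the test, 29 of 15691 groups were called, 16 higher and 13 lower, in place of 167 genes. Chaining also pooled genes that are not copies of each other, the largest group holding 584 genes with 4 called ones, and the part of this pooling in the lower count was not tested. Of the 43 called protein-coding genes, 23 were among these 29, and of the 122 called pseudogenes and genes that share sequence, 6 were. *H2-Q4*, a class I histocompatibility gene among a family of near-identical genes, stood at 130.3, 205 and 194 normalized read counts in OF1-En1+/- and 0, 1.05 and 0 in C57-En1+/- (adjusted p = 0.00228), with 1 read in all in C57-En1+/-. Of 26 genes of class I and antigen presentation tested, the other 25 did not pass the test.

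Gene groups that the study names for this comparison were also examined. They were chosen on these samples, so their directions are not independent evidence. The 3 anion transporter genes had 0 calls in edgeR, 3 of 3 at an unadjusted p under 0.05, and 1 call in DESeq2. Over all 18017 genes tested, 1442 had an unadjusted p under 0.05 in edgeR, and DESeq2 called 444. *Slc26a6*, an exchanger of chloride for bicarbonate and other anions, stood at 1562, 905 and 1644 normalized read counts in OF1-En1+/- and 634, 656 and 595 in C57-En1+/- (log2 fold change 1.12, standard error 0.287, adjusted p = 0.135). *Slc4a9* and *Slc26a1* had log2 fold changes of 2.39 for *Slc4a9* (adjusted p = 0.397) and 1.36 for *Slc26a1* (adjusted p = 0.356). In each of the 3 genes the lowest OF1-En1+/- mouse lay above the highest C57-En1+/- mouse, and 13.2% of all genes tested likewise did not overlap. Of 5 manganese-binding genes edgeR called 0 and DESeq2 3, and the unadjusted p was under 0.05 for 5 of 5. The log2 fold changes were −2.30 for *Nudt7* (adjusted p = 0.346), −1.0 for *Abl2* (adjusted p = 0.117), 0.61 for *Xpnpep1* (adjusted p = 0.253), −1.80 for *Ppm1m* (adjusted p = 0.345) and −1.17 for *Gyg1* (adjusted p = 0.207), and none of the 5 overlapped between strains, beside 13.2% of all genes tested.

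Axon guidance genes, which encode the cues and receptors that steer growing axons, had 0 calls among 72 in edgeR, with 11 at an unadjusted p under 0.05. Their median log2 fold change was −0.34, and DESeq2 called 5, all lower in OF1-En1+/-. Over all 18017 genes tested, 1442 had an unadjusted p under 0.05 in edgeR, and DESeq2 called 444. The members with the highest counts, *Dpysl3* and *Dpysl4*, had log2 fold changes of −0.72 for *Dpysl3* (adjusted p = 0.597) and −0.013 for *Dpysl4* (adjusted p = 0.999). Of 22 interferon-stimulated genes edgeR and DESeq2 called 0, the median was −0.56, and 4 had an unadjusted p under 0.05. *Ifi27* and *Ifit2* had log2 fold changes of −2.28 for *Ifi27* (adjusted p = 0.513) and 0.70 for *Ifit2* (adjusted p = 0.79). Of 26 antioxidant genes 0 were called by either tool and 1 had an unadjusted p under 0.05, and the peroxiredoxin genes *Prdx2* and *Prdx1* had −0.26 for *Prdx2* (adjusted p = 0.826) and −0.28 for *Prdx1* (adjusted p = 0.849). The antioxidant list had 10 positive and 16 negative log2 fold changes, with a median of −0.13. Of 16 genes of familial Parkinson disease 0 were called by either tool and 1 had an unadjusted p under 0.05, with −0.51 for *Uchl1* (adjusted p = 0.729) and −0.027 for *Chchd2* (adjusted p = 0.99). The Parkinson disease list had 8 positive and 8 negative log2 fold changes, with a median of 0.016. *Wdfy1* was the 1 call among 6 genes with known variants among inbred strains, of which DESeq2 called 2.

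For *En1* itself the adjusted p was 0.69, at a log2 fold change of 6.10 with a standard error of 3.09. *En2* (ENSMUSG00000039095, chromosome 5 from 28370689 to 28377195) stood at 0, 137 and 0 normalized read counts in OF1-En1+/- and 0, 8.36 and 0 in C57-En1+/- (adjusted p = 0.849). *Foxa2*, a transcription factor of dopaminergic neurons and the floor plate (ENSMUSG00000037025, chromosome 2 from 147884797 to 147889005), stood at 0, 249 and 0 normalized read counts in OF1-En1+/- and 0, 0 and 0 in C57-En1+/- (adjusted p = 0.518). All 3 genes were carried by SW22, and without SW22 and C572 they had no reads left in the hemizygous libraries. DESeq2 called *Foxa2* (adjusted p = 1.56e-09). Because the C57-En1+/- line was made by backcrossing mice that carried the disrupted allele, the 59 tested genes from position 110530108 to 130535721 of chromosome 1, 10 Mb to either side of *En1*, were set apart. edgeR called 0 of them in hemizygous mice, with 3 at an unadjusted p under 0.05, limma voom 0 and DESeq2 1. In WT mice it also called 0, with 9 at an unadjusted p under 0.05. On the rest of chromosome 1, 7 of 1044 genes were called in hemizygous mice. Over all 18017 genes, 0.927% were called there and 1442 had an unadjusted p under 0.05 in edgeR. At such a share, 0 calls among 59 genes cannot tell the region from the rest. The median absolute log2 fold change near *En1* was 0.41 in hemizygous and 0.50 in WT mice. Over all genes tested it was 0.33 and 0.34.

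Markers of the cell types that a cut of the ventral midbrain can hold were measured in every library, and edgeR called 0 genes of any of these 12 lists, with 0 to 4 members per list at an unadjusted p under 0.05 and at most 1 called by DESeq2. Over all 18017 genes tested, 1442 had an unadjusted p under 0.05 in edgeR, and DESeq2 called 444. Per list, the sums of the members are given, then the log2 fold change of 1 or 2 of the members with the highest counts. The 20 dopaminergic genes ranged from 3898 to 410346 normalized read counts in OF1-En1+/- and 5464 to 16826 in C57-En1+/-, with log2 fold changes of 12.10 for *Slc6a3* (adjusted p = 0.441) and 7.46 for *Th* (adjusted p = 0.604). SW22 alone held the high sum, the median log2 fold change of the list being 2.51 with all 6 mice and −0.46 without SW22 and C572. The subthalamic and posterior hypothalamic list ranged from 8993 to 13665 normalized read counts in OF1-En1+/- and 5733 to 120165 in C57-En1+/-, with log2 fold changes of −3.67 for *Pmch* (adjusted p = 0.907) and −0.58 for *Slc17a6* (adjusted p = 0.954). GABAergic genes ranged from 24836 to 66229.7 normalized read counts in OF1-En1+/- and 7844 to 76601 in C57-En1+/-, with log2 fold changes of −0.14 for *Gad1* (adjusted p = 0.994) and 0.72 for *Gad2* (adjusted p = 0.952). Cholinergic and oculomotor genes ranged from 716 to 2642 normalized read counts in OF1-En1+/- and 1668 to 49935 in C57-En1+/-, with log2 fold changes of −2.19 for *Isl1* (adjusted p = 0.836) and −4.69 for *Prph* (adjusted p = 0.511). Their high sum was that of C572, and the median log2 fold change of the list was −5.36 with all 6 mice and −0.95 without SW22 and C572. Genes of progenitors and immature neurons ranged from 1956 to 6889 normalized read counts in OF1-En1+/- and 1614 to 6100.0 in C57-En1+/-, with log2 fold changes of 0.96 for *Pax6* (adjusted p = 0.953) and −1.80 for *Dcx* (adjusted p = 0.403). Genes of dividing cells ranged from 2917 to 3609 normalized read counts in OF1-En1+/- and 2828 to 6003 in C57-En1+/-, with log2 fold changes of −0.69 for *Ccnb1* (adjusted p = 0.84) and −0.14 for *Cdk1* (adjusted p = 0.985).

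The sums of the glial and vascular lists overlapped between the strains throughout. Of the members named below, *Gpr17* and *Cspg4* did not overlap, as did 13.2% of all genes tested. Astrocyte genes ranged from 64769 to 131708 normalized read counts in OF1-En1+/- and 69600.3 to 147054 in C57-En1+/-, with log2 fold changes of −0.051 for *Aldoc* (adjusted p = 0.993) and 0.15 for *Slc1a3* (adjusted p = 0.947). Oligodendrocyte genes, which encode myelin proteins, ranged from 55795 to 115085 normalized read counts in OF1-En1+/- and 11318 to 199913 in C57-En1+/-, with a log2 fold change of 0.057 for *Mbp* (adjusted p = 0.998), with both ends of the range in C57-En1+/-. The high end was that of C572, beside 21838 in C5713 and 11318 in C575. The median log2 fold change of the list was −0.23 with all 6 mice and 2.68 without SW22 and C572, where that of *Mbp* was 2.59. Oligodendrocyte precursor genes ranged from 12424 to 15911 normalized read counts in OF1-En1+/- and 8591 to 14276 in C57-En1+/-, with log2 fold changes of 0.80 for *Gpr17* (adjusted p = 0.671) and −0.0035 for *Olig1* (adjusted p = 1.0). Of this list 3 genes were positive and 6 negative, with a median of −0.091. Microglial genes ranged from 8149.9 to 12598 normalized read counts in OF1-En1+/- and 7188 to 13143 in C57-En1+/-, with a log2 fold change of −0.0055 for *Csf1r* (adjusted p = 1.0), and DESeq2 called 1 of them. In this list 7 genes were positive and 6 negative, with a median of 0.16. Endothelial genes ranged from 11111 to 17749 normalized read counts in OF1-En1+/- and 10185 to 15285 in C57-En1+/-, with log2 fold changes of 0.25 for *Slc2a1* (adjusted p = 0.929) and 0.49 for *Mfsd2a* (adjusted p = 0.76). Their list had 7 positive and 7 negative log2 fold changes, with a median of 0.0028. Genes of mural cells and fibroblasts ranged from 4163 to 8107 normalized read counts in OF1-En1+/- and 4843 to 8130.2 in C57-En1+/-, with log2 fold changes of 0.27 for *Rgs5* (adjusted p = 0.931) and −0.32 for *Cspg4* (adjusted p = 0.855). Here 3 genes were positive and 10 negative, with a median of −0.53. Immediate early genes, which follow neuronal activity and handling, ranged from 2751 to 3350.2 normalized read counts in OF1-En1+/- and 2296 to 5073 in C57-En1+/-, with log2 fold changes of −0.25 for *Arc* (adjusted p = 0.977) and −1.17 for *Jun* (adjusted p = 0.652). The part of cell composition in the strain differences was not tested.

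**Figure D5:**
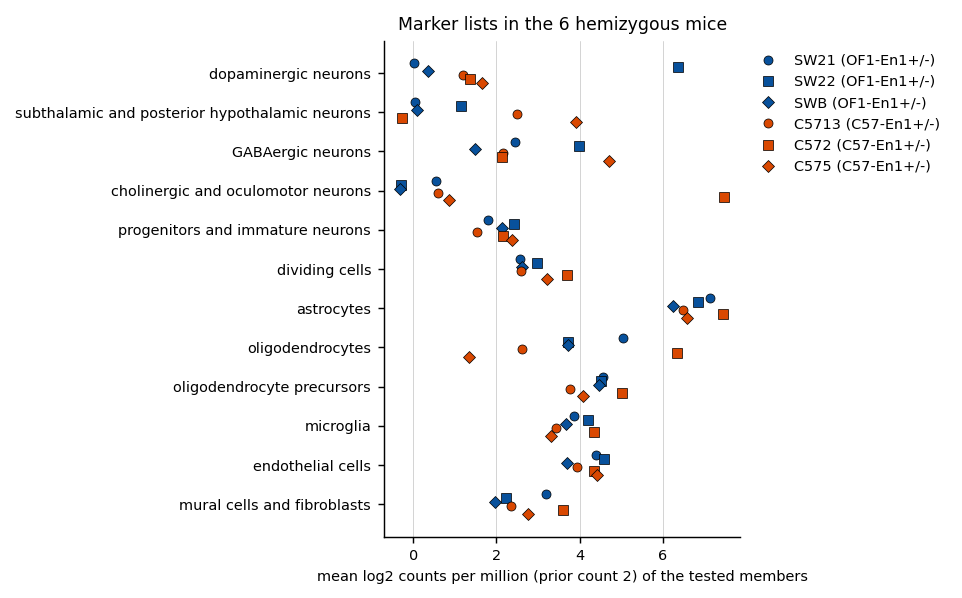
Mean log2 CPM (prior count 2) over the tested members of each of 12 marker lists (y axis), 1 point a hemizygous mouse, OF1-En1+/- blue and C57-En1+/- orange. SW22 stands apart in dopaminergic genes, at 6.35 where the other 5 mice lie between 0.0302 and 1.64, and C572 in cholinergic and oculomotor genes, at 7.47.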

How the data were processed

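RNA-seq of 12 laser-cut substantia nigra samples, 1 per mouse and 3 per group, was used as deposited. The authors amplified cDNA with a SMART-Seq kit, made unstranded Nextera libraries and quantified transcripts with Salmon against GRCm39 transcripts. The deposited values are estimated counts per transcript and TPM, transcripts scaled by the authors for effective length and library size. Estimated counts were summed over the transcripts of each gene, with 99.12% of 140790 transcripts matched to the annotation (54193 genes), and rounded. TPM were summed likewise and only described.

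The test was that of edgeR 4.0.16 in R 4.3.3, on genes whose normalized count averaged 10 or more in the 12 libraries (TMM factors, robust quasi-likelihood, 1 mean per group, prior count 2), after the minimum used by the authors, with Benjamini-Hochberg adjustment at 0.05. Standard errors are the log2 fold change over the root of F. DESeq2 1.42.0, limma 3.58.1 voom, RLE factors, other filters, fewer libraries, transcript length offsets and sums over genes chained by shared sequence were alternatives. The code was tested on simulated data. Genes were classed by biotype and by the share of their distinct 31-base words found in another gene (20%, or 50% as an alternative). Libraries of a group differed by more than sampling noise.

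Members, gene lists and the rule for naming were chosen with earlier results of these data known. Named were the genes the study names for the comparison, the 15 protein-coding genes each way with the smallest p and a mean count of at least 50, up to 6 lncRNA genes each way, 6 pseudogenes and 6 genes that share sequence, up to 4 called members of a list, and the 2 members with the highest counts of a list without a call. Gene models without a name were limited to 2 examples per class among the lncRNA genes, pseudogenes and copies. Of 523 list genes, 522 were found. Some genes that the rule names are not reported here. Sequences are from GRCm39, with coding windows placed by its annotation.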

Additional observations from a re-analysis of the deposited data

Results flagged for a closer look

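*Eif2s3y*, a Y-linked gene of translation initiation, drew attention because its strain difference pointed in opposite directions in the 2 genotypes. In hemizygous mice it stood at 1234, 1049 and 1390.4 normalized read counts in OF1-En1+/- and 957, 0 and 849.9 in C57-En1+/- (log2 fold change 1.03), and in WT mice the log2 fold change was −0.86. The difference between them was 1.89 on the log2 scale, with an adjusted p of 0.83 for the interaction in edgeR. C572, with 0 reads of *Eif2s3y* and of *Ddx3y* (log2 fold change 0.73, adjusted p = 0.951) and 1330.5 normalized read counts of *Xist*, set the C57-En1+/- values of both genes, although its label reads male. Without C572 the log2 fold change of Eif2s3y in hemizygous mice was 0.43.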

How the results depend on the processing

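The number of genes called depended on the tool and on the libraries. In place of 167 genes and 43 protein-coding genes, DESeq2 called 444 and 186, a fit to the 6 hemizygous libraries alone 109 and 22, and the fit without SW22 and C572 84 and 19. A fit to protein-coding genes alone called 51 genes, and 29 groups were called when genes chained by shared sequence were summed, unrelated genes among them. Leaving out 1 library gave 108 to 126 genes and 26 to 34 protein-coding genes. DESeq2 called 456 genes in WT mice in place of 185, and 42 for the interaction in place of 0. RLE factors, other filters, transcript length offsets, limma voom and library sizes without mitochondrial genes moved the counts by less than 1.5 times, and a sharing threshold of 50% gave 55 protein-coding genes. The median of the 13 mitochondrially encoded genes stayed negative, between −0.67 and −1.08. Of 776 alternative log2 fold changes of named genes that were called, 643 kept direction and threshold, 133 kept the direction only and 0 reversed. Among named genes that were not called, 62 values of 846 changed sign. These were, on the log2 scale, as follows. With DESeq2 *Olig1* 0.0033 and *Csf1r* 0.0039. With RLE factors *Olig1* 0.0044 and *Csf1r* 0.0054. With library sizes without mitochondrial genes *Atp5f1b* −0.0073. With limma voom *Atp5f1b* −0.037, *Gad1* 0.47, *Cdk1* 0.077, *Aldoc* 0.21, *Olig1* 0.045 and *Csf1r* 0.030. With transcript length offsets *Atp5f1b* −0.090, *Prdx2* 0.017 and *Csf1r* 0.045. Without SW22 and C572 *Ndufb8* 0.21, *Ndufv2* 0.084, *Atp5f1a* 0.18, *Prdx1* 0.046, *Chchd2* 0.051, *Th* −1.82, *Cdk1* 0.23, *Aldoc* 0.68 and *Olig1* 0.31. The ranges over the fits that left out 1 library and held a change of sign were *En1* −5.21 to 11.28, *En2* −5.03 to 8.94, *Ndufb8* −0.33 to 0.14, *Atp5f1b* −0.071 to 0.095, *Atp5f1a* −0.18 to 0.089, *Dpysl4* −0.21 to 0.073, *Prdx1* −0.45 to 0.037, *Chchd2* −0.12 to 0.049, *Th* −1.80 to 8.22, *Pmch* −8.99 to 7.05, *Gad1* −0.68 to 1.02, *Gad2* −0.41 to 1.23, *Pax6* −0.83 to 3.29, *Cdk1* −0.36 to 0.39, *Aldoc* −0.54 to 0.49, *Slc1a3* −0.0058 to 0.33, *Mbp* −0.47 to 2.36, *Olig1* −0.12 to 0.17, *Csf1r* −0.36 to 0.22, *Slc2a1* −0.029 to 0.47, *Rgs5* −0.028 to 0.49 and *Arc* −1.29 to 0.90. The cause was not tested. No paired analysis was possible because the labels give the mice no replicate numbers shared between groups.

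With 3 mice per group, an exact permutation test of a single gene cannot go below 0.10, so tests rest on the spread shared across genes. A gene with few reads in the smallest library, of 13570749 estimated reads, is poorly resolved, and a gene listed at 0 reads may still be expressed. The reference genome is that of C57BL/6J, and library preparation does not keep the strand, so reads of overlapping genes on opposite strands cannot be told apart.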

Other observations

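Protein-coding genes called between OF1-En1+/- and C57-En1+/- mice were spread over 16 nuclear chromosomes, with at most 5 on any of them. Chromosomes 4 and 9 held 5 each, of 809 and 760 protein-coding genes tested. With the called lncRNA genes included, only 3 pairs of neighbours on the nuclear chromosomes lay within 1 Mb of each other. *Fv1* and *Angptl7* on chromosome 4, 0.623 Mb apart, were both higher in OF1-En1+/-. *Gm13112* and *Gnb1*, 0.609 Mb apart on the same chromosome, went in opposite directions, as did *Abhd14a* and *Hemk1* on chromosome 9, 0.878 Mb apart. *Abhd14b* (chromosome 9 from 106324641 to 106330122), which shares sequence with a neighbouring gene, was picked out after its values were seen. It overlaps *Abhd14a* on the opposite strand, and reads of the overlap cannot be told apart. *Abhd14b* stood at 15.8, 14.0 and 3.38 normalized read counts in OF1-En1+/- and 220.5, 293 and 297 in C57-En1+/- (log2 fold change −4.65, adjusted p = 0.0044 in edgeR).

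*Pebp1*, a phosphatidylethanolamine-binding protein that inhibits Raf kinase, and *Cbx3*, a heterochromatin protein, were called alone and in a sum with the genes they share sequence with, and were picked out after their values were seen. *Pebp1* stood at 10095, 8701 and 10543 normalized read counts in OF1-En1+/- and 26733, 26488 and 22967 in C57-En1+/-, with a log2 fold change of −1.38, and of −1.38 for the sum over its group of genes with shared sequence (adjusted p = 0.0064 in edgeR). *Cbx3* stood at 3785, 2499.7 and 2702 and 7019, 6280.3 and 6214, with log2 fold changes of −1.12 alone and −1.12 in the sum over its group, and its call was lost without SW22 (adjusted p 0.0592) in edgeR. Both genes were lower in every OF1-En1+/- mouse than in every C57-En1+/- mouse. In WT mice the log2 fold changes were −0.75 for *Pebp1* (adjusted p = 0.0749 in edgeR) and −0.70 for *Cbx3* (adjusted p = 0.134).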
